A study of Homo sapiens with 6 samples.

Results

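The DLX genes DLX1, DLX2, DLX3, DLX4, DLX5 and DLX6 encode the human relatives of the fly protein Distal-less, transcription factors that bind DNA through a homeodomain. Members were chosen by symbol, and all 6 genes of the family were measured, among 18239 genes in all, with 12 of 45253 probe sets that named 1 gene. The family was put forward with the rise of DLX2 in these samples already known, so the DLX2 values are given as a description with no p-value, and tests are given for the other 5 members. Members and gene lists were chosen with earlier results of these data known. Genes named from the lists were mostly the largest rises and falls at 24 h. The p-values of members and named genes are therefore no independent support. HK-2 is an established, immortalized human line of renal proximal tubule cells, the cells in which cisplatin, a platinum drug that crosslinks DNA, accumulates. Its RNA was measured on 6 single-colour arrays in 3 groups of 2, namely non-treated cells (control) and cells exposed to 50 μM cisplatin for either 6 h or 24 h. All groups grew in serum-free keratinocyte medium that held bovine pituitary extract, epidermal growth factor and L-glutamine, and the comparisons ask how expression changed with time of exposure. No time is labelled for the control, and no control is labelled for either treatment time, so cisplatin and time in culture cannot be told apart. The pair of samples in a group are labelled biological replicates without saying what was repeated, so p-values cover their spread only, which may be technical. In bulk RNA of this kind, a change in how many cells make a transcript and a change in how much each cell makes cannot be told apart.

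In the human genome the DLX genes lie in 3 pairs, DLX1 with DLX2 on chromosome 2, DLX5 with DLX6 on chromosome 7 and DLX3 with DLX4 on chromosome 17, and the genes of a pair are transcribed towards each other and share enhancers. Bone morphogenetic proteins (BMPs), endothelin and fibroblast growth factors switch DLX genes on in the embryo, where they pattern the jaw arches, limbs, teeth, skin and bone, and DLX1 and DLX2 direct the formation of inhibitory neurons in the forebrain. Their proteins recognise DNA with a TAATT core, and the related MSX homeodomain proteins bind to DLX proteins and counter their activity. Adult kidney tubules are not a classical site of their action.

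The RefSeq promoters (GRCh38.p14, 250 bases before to 50 after the gene start) of DLX1, DLX2 and DLX6 are shown because DLX1 and DLX2 had the largest differences of the family and DLX6 is the third member for which a sequence was held. They lie at chr2:172085257-172085556 on the + strand for DLX1, at chr2:172102851-172103150 on the - strand for DLX2 and at chr7:97005303-97005602 on the + strand for DLX6. Capitals mark every match, on either strand, of 8 short motifs: TAATTA and TAATTG (homeodomain), TGACGTCA (cyclic AMP response), TGANTCA (AP-1), TATAAA (core promoter), GGGCGG (GC box), CACCC (Kruppel-like factors) and CANNTG (E box).
DLX1: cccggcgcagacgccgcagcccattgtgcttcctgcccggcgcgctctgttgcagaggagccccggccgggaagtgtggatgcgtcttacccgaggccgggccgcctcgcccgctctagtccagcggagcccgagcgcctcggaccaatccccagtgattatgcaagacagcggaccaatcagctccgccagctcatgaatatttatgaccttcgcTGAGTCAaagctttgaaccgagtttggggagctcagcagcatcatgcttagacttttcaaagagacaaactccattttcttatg
DLX2: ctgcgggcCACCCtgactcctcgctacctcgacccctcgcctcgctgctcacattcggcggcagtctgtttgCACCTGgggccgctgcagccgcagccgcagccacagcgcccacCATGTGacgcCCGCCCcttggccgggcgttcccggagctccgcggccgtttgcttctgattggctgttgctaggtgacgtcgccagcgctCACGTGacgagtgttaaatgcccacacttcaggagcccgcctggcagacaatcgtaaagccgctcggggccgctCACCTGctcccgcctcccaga
DLX6: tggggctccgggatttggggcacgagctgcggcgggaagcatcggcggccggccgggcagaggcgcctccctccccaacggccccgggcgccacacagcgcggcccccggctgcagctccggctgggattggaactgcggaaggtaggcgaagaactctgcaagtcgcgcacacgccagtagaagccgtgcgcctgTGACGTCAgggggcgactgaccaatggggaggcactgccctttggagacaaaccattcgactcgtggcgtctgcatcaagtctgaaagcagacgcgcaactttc

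Each promoter held different motif letters. The DLX1 promoter held 1 match, TGAGTCA at position -34 from the gene start, a motif present in 7.709% of all 35116 promoters of this length. The DLX6 promoter held 1 match, TGACGTCA at position -54, present in 1.848% of promoters. The DLX2 promoter held 4 E boxes, at -178, -135, -45 and 30, a GC box on the other strand at -125 and CACCC at -242, and these motifs are common, being in 68.68%, 44.95% and 59.87% of promoters. No homeodomain letters (TAATTA in 4.838% and TAATTG in 7.376% of promoters) and no TATAAA (11.53%) lay in these windows. The DLX2 and DLX6 windows were 67.67% and 67% G or C and the DLX1 window 59%, where the median promoter had 58.67%. These matches are a description of letters, and binding was not measured here.

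Arrays of the same group were alike by correlation, while control probe sets shifted with the group. Across probe sets, arrays of the same group correlated at 0.996 to 0.998 and arrays of different groups at 0.961 to 0.985, and array medians lay between 4.45 and 4.54 on the log2 scale. The values are log2 signals after robust multi-array average analysis, which sets all arrays to one distribution. Close medians are thus largely built in, and each difference is relative to the rest of the array. Control probe sets moved within this scale. Relative to control, the 36 spike-in probe sets gained 0.371 at 6 h and 0.885 at 24 h (9 hybridization spike-ins by 0.0975 and 0.410, 12 poly-A spike-ins by 0.541 and 1.21, 15 others by 0.400 and 0.909). The 23 probe sets for non-specific background averaged 2.92 in control, 2.90 at 6 h and 3.19 at 24 h, a shift of -0.0183 and 0.272. The brightest probe set by its average on all 6 arrays stood for each gene, which was tested with limma in 1 fit of the 3 groups. A gene passed at a Benjamini-Hochberg adjusted p under 0.05 over the whole table.

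DLX2 had the largest measured difference of all 18239 genes at 24 h and ranked 2 at 6 h. DLX2 is needed, with DLX1, for forebrain inhibitory neurons and for the upper jaw in mice. Its log2 signal was 3.17 and 2.74 on the control arrays, 6.15 and 6.19 at 6 h, and 8.46 and 8.50 at 24 h. The groups did not overlap and lay in the order control, 6 h and 24 h. The control mean, 2.96 ± 0.30 (SD, n = 2), was near that of the background probe sets, which ranged from 1.95 to 7.13 on the control arrays, and the level then reached 6.17 ± 0.03 and 8.48 ± 0.03. The measured difference from control was 3.21 at 6 h and 5.52 at 24 h. Since the control level was at background, the size of the change, and its rank, have no exact value. For a cautious value, each control array was given the higher of its DLX2 signal and the mean of its background probe sets. The brightest DLX2 probe set was then 8.72-fold higher at 6 h and 43.25-fold higher at 24 h on the deposited scale. These are not lower bounds, since the difference was smaller with other scalings and with the mean of all DLX2 probe sets. From 6 h to 24 h DLX2 gained a further 2.31, rank 6 among all genes.

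The rise of DLX2 was seen by 1 of its 3 probe sets. The set with these values, 11735181_a_at, was the brightest over all arrays only through the treated ones, since in control cells it was the dimmest of the 3 DLX2 sets. The set 11735180_a_at read 4.03 and 4.06 in control, 3.94 and 4.23 at 6 h and 4.15 and 4.34 at 24 h. The set 11760026_a_at read 3.79 and 3.85, then 3.66 and 3.80, then 3.80 and 3.96. These other sets thus differed from control by 0.04 and -0.09 at 6 h and by 0.20 and 0.06 at 24 h, where the first set differed by 3.21 and 5.52. With the mean of the 3 sets, the DLX2 difference was 1.05 at 6 h and 1.93 at 24 h, and 0.87 from 6 h to 24 h. The suffix of all 3 sets marks probes for alternative transcripts of 1 gene, and which transcripts each set reads was not tested.

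DLX1, the partner of DLX2 on chromosome 2 and in forebrain development, rose at 6 h and was lower again at 24 h, though still above control. Its log2 signal was 4.57 and 4.65 in control, 6.39 and 6.40 at 6 h and 5.96 and 6.02 at 24 h. All groups were separate, with 6 h highest. The difference from control was 1.79 (95% interval 1.61 to 1.97; limma adjusted p = 3.17e-06), or 3.45-fold, at 6 h, rank 52 of all genes. At 24 h it was 1.38 (1.20 to 1.56; limma adjusted p = 2.40e-06), or 2.61-fold, rank 368. From 6 h to 24 h DLX1 fell by 0.41 (interval -0.59 to -0.23; limma adjusted p = 0.00445), whereas DLX2 on the same chromosome gained 2.31.

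Here too a single probe set carried the difference. The rising set of DLX1, 11733376_s_at, bears the suffix that Affymetrix gives to probes that more than 1 transcript, of the same or of another gene, can share. The other set, 11756868_a_at, read 3.24 and 2.93 in control, 3.05 and 3.03 at 6 h and 2.93 and 3.13 at 24 h. Its groups overlapped, and with each probe set tested on its own it differed by -0.04 at 6 h (interval -0.33 to 0.25; limma adjusted p = 0.871) and by -0.05 at 24 h (limma adjusted p = 0.749). With the mean of both sets DLX1 was still higher, by 0.87 at 6 h (limma adjusted p = 4.89e-05) and 0.66 at 24 h (limma adjusted p = 9.87e-05), and the change between the times was -0.21 (limma adjusted p = 0.0621).

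**Figure D1:**
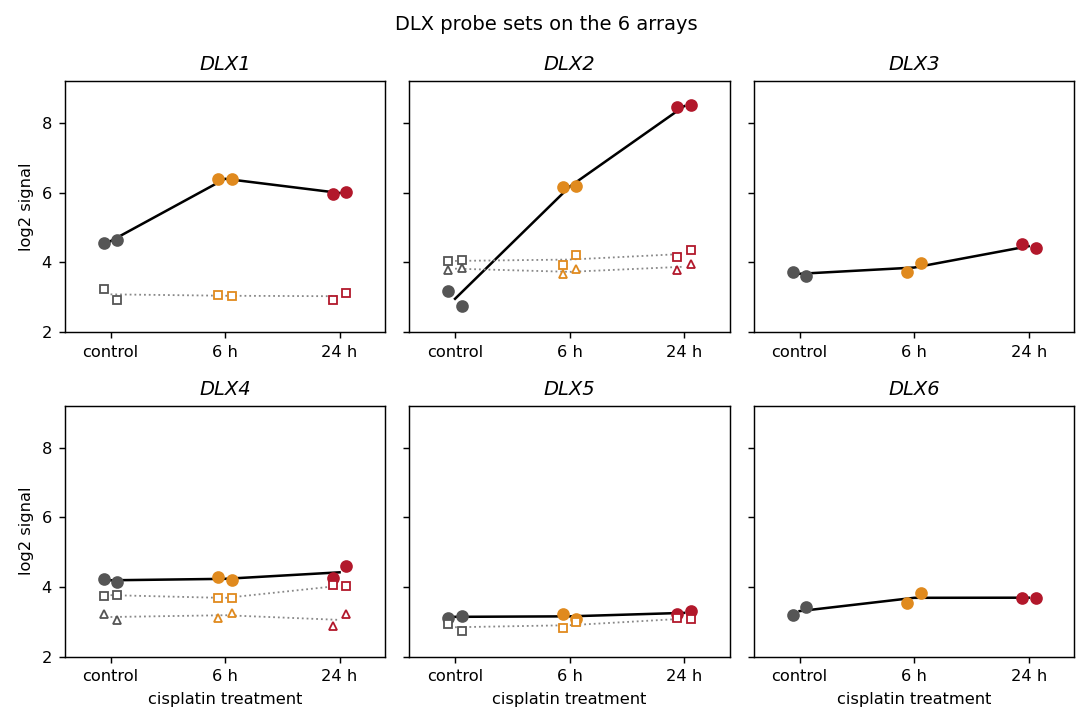
Log2 signal (vertical axis) of all 12 DLX probe sets on the 6 arrays, by treatment (horizontal axis); filled circles joined by a solid line through the group means are the brightest set of each gene, and open symbols with dotted lines are its other sets. DLX2 climbs from about 2.96 to 8.48 and DLX1 from 4.61 to 6.40 and back to 5.99 in 1 probe set each, while all other sets stay between 2.74 and 4.60.

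DLX3, which acts in the placenta, the epidermis, hair and teeth, rose late. Its only probe set read 3.73 and 3.62 in control, 3.73 and 3.97 at 6 h and 4.53 and 4.40 at 24 h. The 24 h arrays were above all others, and the 6 h arrays lay only just above control. The difference was 0.18 at 6 h (95% interval -0.06 to 0.42; limma adjusted p = 0.248) and 0.79 at 24 h (0.56 to 1.03; limma adjusted p = 0.000255), or 1.73-fold. Between the times DLX3 gained 0.61 (0.38 to 0.85; limma adjusted p = 0.00221).

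DLX6, the partner of DLX5 in the lower jaw, was slightly higher at both times, near the threshold. Its only probe set read 3.20 and 3.42 in control, 3.55 and 3.83 at 6 h and 3.70 and 3.69 at 24 h. Treated arrays were above both control arrays, and the times overlapped. The difference was 0.38 at 6 h (0.12 to 0.65; limma adjusted p = 0.0375) and 0.38 at 24 h (0.12 to 0.65; limma adjusted p = 0.0215), and the later arrays differed from the earlier ones by 0.00 (-0.26 to 0.27; limma adjusted p = 0.986). The call depended on single arrays. Without control replicate 1 the differences were 0.27 (limma adjusted p = 0.202) and 0.28 (limma adjusted p = 0.135). Without the second 6 h array the 6 h difference was 0.24 (limma adjusted p = 0.246), and without either 24 h array the 24 h call was lost (limma adjusted p = 0.0668 and 0.0632). At these low signals the background probe sets had moved by 0.272 at 24 h, and what part that shift has in the DLX6 value was not tested.

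DLX4, a gene of placenta and blood-forming cells, and DLX5, a driver of bone formation, did not pass in any comparison. The brightest DLX4 set read 4.23 and 4.15 in control, 4.28 and 4.19 at 6 h and 4.25 and 4.60 at 24 h. Only the second 24 h array stood apart, and the differences were 0.04 (-0.23 to 0.31; limma adjusted p = 0.842) and 0.23 (-0.04 to 0.50; limma adjusted p = 0.137). Leaving out the first 24 h array gave 0.41 (limma adjusted p = 0.0125). DLX4 had 2 further sets, and 11738030_s_at read 3.75 and 3.78 in control, 3.69 and 3.69 at 6 h and 4.06 and 4.02 at 24 h. With each probe set tested, that set was higher at 24 h than in control by 0.27 (limma adjusted p = 0.0292) and than at 6 h by 0.35 (limma adjusted p = 0.0160), a size like that of the shift of the background probe sets. The third, 11758660_s_at, ran from 2.88 to 3.27 with all groups overlapping.

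DLX5 stayed near the background. Its brightest set read 3.12 and 3.17 in control, 3.24 and 3.08 at 6 h and 3.21 and 3.30 at 24 h. The differences were 0.01 (-0.19 to 0.22; limma adjusted p = 0.932) and 0.11 (-0.09 to 0.32; limma adjusted p = 0.306). The second set, 11760651_a_at, read 2.95 and 2.74, then 2.81 and 2.997, then 3.11 and 3.07, a difference of 0.24 at 24 h (limma adjusted p = 0.0994 with each probe set tested). The intervals leave room for changes of up to 0.32 in the first set.

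Of the 5 members tested, 2 (DLX1 and DLX6) were higher at 6 h, beside 14.0% of all genes, and none was lower, beside 15.8%. At 24 h 3 (DLX1, DLX3 and DLX6) were higher, beside 31.2% of all genes, and none was lower, beside 23.0%. Between 6 h and 24 h, 1 (DLX3) was higher and 1 (DLX1) lower, beside 21.2% and 16.7% of all genes. With 5 genes, no share is read from these counts. The median difference of all genes was 0.03, 0.10 and 0.07 in the same order. At 24 h the control and treated arrays of the brightest set did not overlap in any of the 6 genes, but that is common here, since both 24 h arrays lay above both control arrays in 46.9% of all genes, and DLX4 and DLX5 did not pass.

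**Figure D2:**
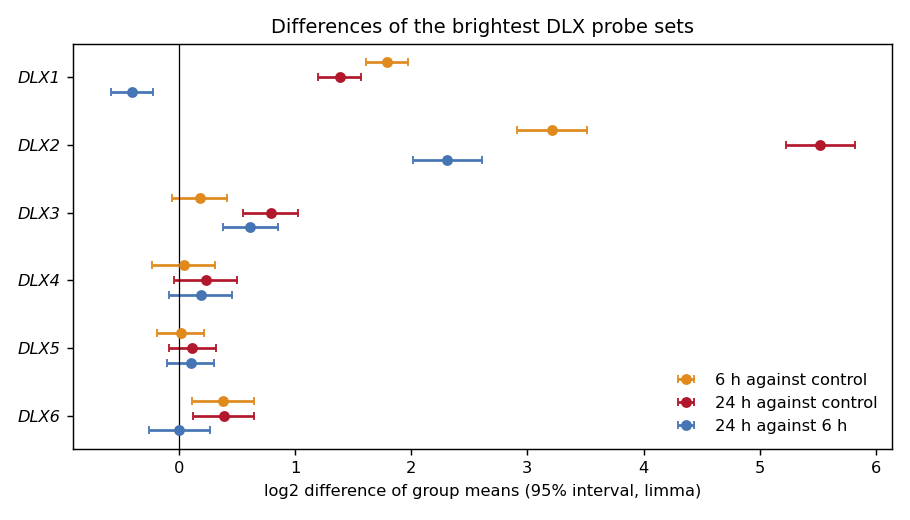
Log2 difference of group means (horizontal axis) for the brightest probe set of each DLX gene in 3 comparisons, with bars for the 95% interval from the limma fit over 6 arrays. The bars of DLX2 are no test, since the family was put forward with its rise known. DLX2 reaches 5.52 and DLX1 1.38 at 24 h, DLX1 alone lies below 0 between 6 h and 24 h (-0.41), and the bars of DLX4 and DLX5 cross 0 in every comparison, with values that stand on the deposited scale and shift with the scaling of the arrays.

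How the arrays are scaled moved the weaker members across 0. Scaling every array to its spike-ins lowered the median of all genes to -0.34 at 6 h and -0.78 at 24 h, scaling to the hybridization spike-ins alone to -0.07 and -0.31, to the poly-A spike-ins to -0.51 and -1.11 and to 13 housekeeping genes to -0.13 and -0.05. DLX2 stayed above control in all of these, between 2.67 and 3.11 at 6 h and between 4.31 and 5.37 at 24 h. DLX1 was higher by 1.25 or more at 6 h, and at 24 h by 0.97 with the hybridization spike-ins, 0.50 with all spike-ins and 0.17 with the poly-A spike-ins (limma adjusted p = 0.367). DLX3 at 24 h stayed higher with the hybridization spike-ins (0.38) and the housekeeping genes (0.64) and turned to -0.09 with all spike-ins and -0.42 with the poly-A spike-ins. DLX6 at 24 h turned to -0.03, -0.50 and -0.83 with the hybridization, all and poly-A spike-ins, and with the housekeeping genes it stood at 0.23 and no longer passed (limma adjusted p = 0.133).

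Differences relative to the median of all genes do not depend on such a scaling. On that measure DLX2 was higher by 3.18 at 6 h and 5.42 at 24 h and DLX1 by 1.76 and 1.28. DLX3 stood at 0.15 and 0.69 and DLX6 at 0.35 and 0.28. DLX4 stood at 0.01 and 0.13 and DLX5 at -0.01 and 0.01, so these moved little against the middle of the array.

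**Figure D3:**
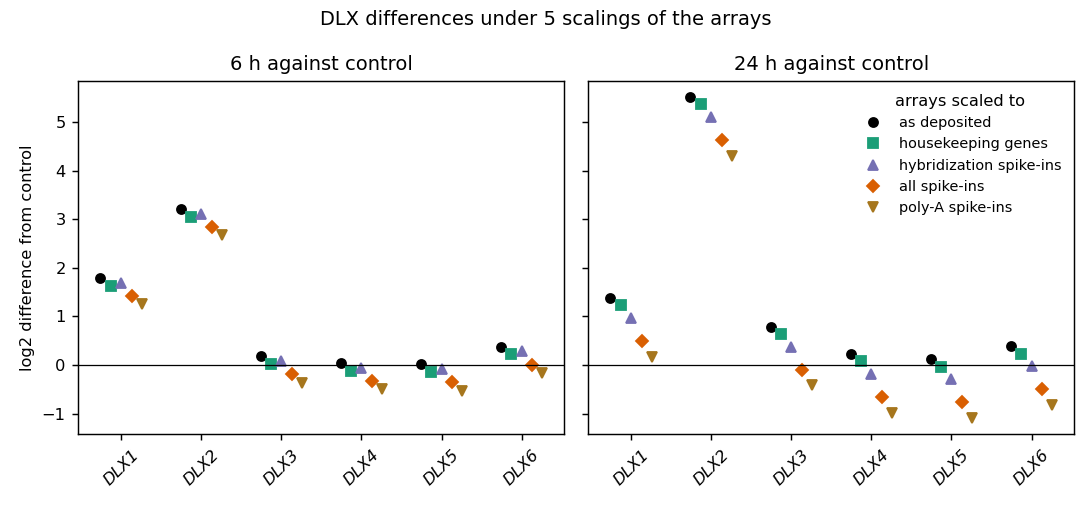
Log2 difference from control (vertical axis) of the brightest probe set of each DLX gene at 6 h and at 24 h, as deposited and after scaling the arrays to 13 housekeeping genes or to 3 choices of spike-in probe sets. DLX1 and DLX2 are above 0 throughout (lowest 0.17 and 2.67), while DLX3, DLX4, DLX5 and DLX6 change sign, DLX6 at 24 h from 0.38 as deposited to -0.83 with the poly-A spike-ins.

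The genes that carry BMP signals to DLX genes changed in both directions. Among the upstream signals and factors, 12 of 15 were measured. At 6 h, 1 of them had risen and 0 had fallen, beside 14.0% and 15.8% of all genes. At 24 h 3 had risen and 2 had fallen, beside 31.2% and 23.0% (median 0.00 at 6 h and 0.05 at 24 h). BMP4, a ligand that induces DLX genes in the embryo, read 5.06 and 5.26 in control, 5.73 and 5.53 at 6 h and 6.59 and 6.61 at 24 h. It was higher by 0.47 at 6 h and 1.44 at 24 h (limma adjusted p = 0.00878 and 7.74e-06), but with the poly-A spike-ins these values were -0.07 and 0.23 and did not pass (limma adjusted p = 0.716 and 0.222). The 6 h value also did not pass with all spike-ins (0.10, limma adjusted p = 0.495). At 6 h the BMP4 call rested on single arrays, since without control replicate 1 or without the first 6 h array its limma adjusted p was 0.0650 or 0.0715. EDN1, or endothelin, which acts ahead of DLX5 and DLX6 in the jaw, was higher at 24 h by 1.16 (limma adjusted p = 0.000341), a difference that turned to -0.05 with the poly-A spike-ins. FGF8 at 24 h was at 0.32 (limma adjusted p = 0.0205), with a mean of 2.996 in control and 3.319 at 24 h. That is near the background probe sets, whose mean shifted by 0.272 at 24 h, and the part of that shift was not tested. Without control replicate 2 or the second 24 h array the FGF8 difference was 0.28 or 0.22, and its call was lost. With all 3 spike-in scalings FGF8 turned to -0.09 or lower. BMP2, a related ligand, fell by 0.72 at 24 h (limma adjusted p = 0.000102), and MEF2C, a factor through which endothelin acts, fell by 0.62 (limma adjusted p = 0.00497). MEF2C was dim, with a mean of 3.9 in control and 3.28 at 24 h.

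Of 19 BMP receptors, SMADs, antagonists and ID genes, 18 were measured. At 6 h, 5 had risen and 4 had fallen, beside 14.0% and 15.8% of all genes. At 24 h 6 had risen and 8 had fallen, beside 31.2% and 23.0% (median 0.01 at 6 h and -0.10 at 24 h). BAMBI, a decoy receptor that dampens BMP and TGF-beta signals and is itself induced by them, read 3.84 and 3.40 in control, 6.68 and 6.70 at 6 h and 7.15 and 7.10 at 24 h. That is a rise of 3.07 and 3.51 (limma adjusted p = 3.07e-06 and 3.70e-07). The ID genes, direct targets of BMP signals, included ID3, higher by 1.86 and 2.57 (limma adjusted p = 1.13e-05 and 6.60e-07), and ID1, higher by 0.58 and 0.80, though ID1 at 24 h turned to -0.09 and -0.42 with all and with the poly-A spike-ins. GREM1, a secreted antagonist that binds BMP ligands, fell from 10.59 and 10.64 in control to 9.55 and 9.46 at 6 h and 8.27 and 8.59 at 24 h. GREM1 thus differed by -1.11 at 6 h and -2.19 at 24 h (limma adjusted p = 0.000137 and 1.33e-06). BMPR1B, a receptor, was lower by -1.36 at 24 h (limma adjusted p = 0.000192). BMPR1B was dim, at 3.53 and 4.07 in control and 2.31 and 2.58 at 24 h, where the background probe sets averaged 3.17 and 3.21. The size of its fall thus has no exact value. SMAD7, an intracellular inhibitor, was lower by -0.98 at 24 h (limma adjusted p = 2.08e-05). The proteins that carry or block these signals were not measured, so no state of the pathway is read from these transcripts.

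Of the 4 proteins listed as binding DLX proteins, 2 were higher at both times and none was lower (median 0.23 and 0.42). This stands beside 14.0% higher and 15.8% lower of all genes at 6 h, and 31.2% and 23.0% at 24 h. With 4 genes, no share is read from these counts. MSX1, a homeodomain repressor that pairs with DLX proteins, read 5.37 and 5.40 in control, 7.82 and 8.002 at 6 h and 8.11 and 8.16 at 24 h, a rise of 2.52 and 2.74 (limma adjusted p = 1.40e-06 and 2.03e-07). MAGED1, a MAGE-family protein that binds DLX5 and MSX2, rose by 0.38 and 0.84 (limma adjusted p = 0.00642 and 3.47e-05), and with all and with the poly-A spike-ins its 24 h value turned to -0.04 and -0.37. The 6 h call of MAGED1 was lost without the first 6 h array (limma adjusted p = 0.0607). MSX2 stood at 0.00 (limma adjusted p = 0.972) and GRIP1 at -0.10 (limma adjusted p = 0.356) at 24 h.

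Genes described downstream of DLX proteins, mostly in the mouse, did not move as one. Of 19, 18 were measured. At 6 h, 4 of these had risen and 2 had fallen, beside 14.0% and 15.8% of all genes. At 24 h 5 had risen and 2 had fallen, beside 31.2% and 23.0% (median 0.12 at 6 h and 0.16 at 24 h). GNRH1, the gonadotropin-releasing hormone gene, which DLX proteins activate and MSX proteins repress in mouse cells, rose by 1.33 and 1.98 (limma adjusted p = 0.00219 and 0.000105). GNRH1 was dim in control, at 3.58 and 3.24. The homeobox gene GBX2 rose by 0.76 and 1.70 (limma adjusted p = 0.00174 and 8.31e-06). In the limma fit without moderation of the variances, the 6 h calls of GNRH1 and GBX2 were lost (adjusted p = 0.108 and 0.0737). GAD1, an enzyme that makes the inhibitory transmitter GABA, read 3.07 and 3.07 in control, 3.30 and 3.32 at 6 h and 3.44 and 3.93 at 24 h. Its 24 h difference was 0.62 (limma adjusted p = 0.00645), -0.27 with all spike-ins and -0.60 with the poly-A spike-ins. The 24 h call of GAD1 was also lost in the limma fit without moderation (adjusted p = 0.106). RUNX2, a bone regulator that DLX5 activates in mouse osteoblasts, read 9.65 and 9.78 in control, 7.19 and 7.13 at 6 h and 5.57 and 5.69 at 24 h. It fell by 2.56 at 6 h and by 4.09 at 24 h (limma adjusted p = 1.35e-06 and 1.03e-07). NRP2, a guidance receptor that DLX1 and DLX2 repress in mouse neurons, fell by 0.71 and 1.30 (limma adjusted p = 0.000692 and 9.33e-06).

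**Figure D4:**
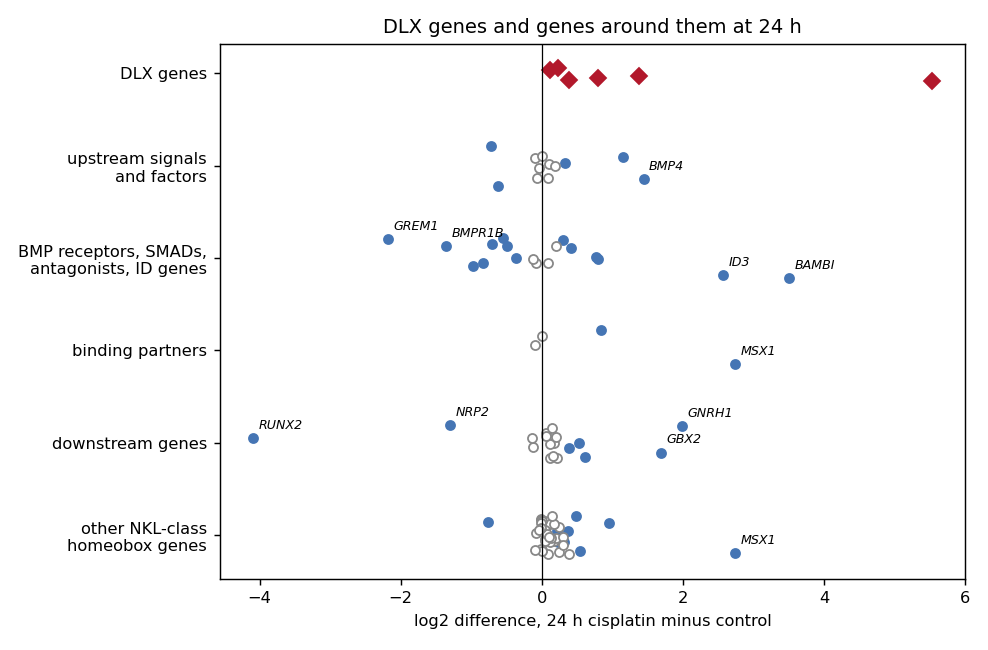
Log2 difference at 24 h from control (horizontal axis) of the 6 DLX genes (diamonds) and of the genes around them, 1 point per gene in 5 lists (rows); filled circles passed the limma threshold, open circles did not, and spread within a row carries no meaning. BAMBI (3.51), MSX1 (2.74, in 2 rows) and ID3 (2.57) lie farthest to the right after DLX2 (5.52), and RUNX2 (-4.09) and GREM1 (-2.19) farthest to the left, on the deposited scale, where rises under 1.21 turn below 0 with the poly-A spike-ins.

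Other homeobox genes of the same NKL class gave a view of the nearest relatives. Of 42, 40 were measured. At 6 h 7 had risen and 0 had fallen, beside 14.0% and 15.8% of all genes. At 24 h 8 had risen and 1 had fallen, beside 31.2% and 23.0%. The medians were 0.04 and 0.11 beside 0.03 and 0.10 for all genes. With the hybridization spike-ins 2 were higher and 23 lower at 24 h, beside 1731 and 9832 of all 18239 genes. With all spike-ins 1 was higher and 38 lower, beside 593 and 16107. Next to MSX1, already described, HHEX, a factor of liver and blood development, rose by 1.62 at 6 h and 0.96 at 24 h (limma adjusted p = 2.45e-05 and 0.000168) and fell by 0.66 between the times (limma adjusted p = 0.00279), with a 24 h value of -0.25 after scaling to the poly-A spike-ins. NKX2-5, a heart regulator, was higher at 24 h by 0.54 (limma adjusted p = 0.00123), and turned to -0.35 and -0.67 with all and with the poly-A spike-ins. NKX2-4 was lower at 24 h by -0.76 (limma adjusted p = 0.000372). In control cells 34 of the 40 genes had a log2 mean below 5, as did all 6 DLX genes.

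Most of the genes next to the DLX pairs that passed were lower than in control at both times. The 4 nearest measured protein-coding genes on each side of each pair were taken in RefSeq order, 24 in all. Around DLX1 and DLX2, none of 8 was higher at either time, 2 were lower at 6 h and 6 at 24 h, from -1.95 for CDCA7, a cell cycle gene, and -1.43 for ITGA6, an integrin, to 0.10 for METAP1D. METAP1D and ITGA6 are the measured genes nearest to the pair, and at 6 h they stood at -0.11 and 0.19, where DLX1 and DLX2 stood at 1.79 and 3.21. ITGA6 did not pass at 6 h (limma adjusted p = 0.228). Around DLX3 and DLX4, 1 of 8 was higher and 2 lower at 6 h, where FAM117A stood at 0.26 (limma adjusted p = 0.0375, and 0.597 with the mean of its probe sets). At 24 h 1 of these 8 was higher and 2 lower, SAMD14 at 0.56 (limma adjusted p = 0.00565), KAT7 at -0.26 (limma adjusted p = 0.0269, and up to 0.117 with 1 array left out) and ITGA3 at -1.57 (limma adjusted p = 1.31e-06). SAMD14 turned to -0.32 with all spike-ins. Around DLX5 and DLX6, 1 of 8 was higher and 2 lower at 6 h, where ASNS, the asparagine synthetase gene, stood at 0.38 (limma adjusted p = 0.00957), the same size as DLX6, and lost its call without control replicate 1 (limma adjusted p = 0.0596) or without the second 6 h array (limma adjusted p = 0.0632). At 24 h none of these 8 was higher and 3 were lower, SLC25A13, a mitochondrial carrier, at -2.09 (limma adjusted p = 7.91e-07), SDHAF3 at -0.77 and PDK4 at -0.64, the last at -0.14 with the mean of its probe sets (limma adjusted p = 0.285). Of all 24 neighbours, 2 were higher and 6 lower at 6 h, beside 14.0% and 15.8% of all genes. At 24 h 1 was higher and 11 were lower, beside 31.2% and 23.0%. The lncRNA genes DLX2-DT and DLX6-AS1, which lie beside or across DLX2 and DLX6, had 0 probe sets of their own and are not analysed here.

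**Figure D5:**
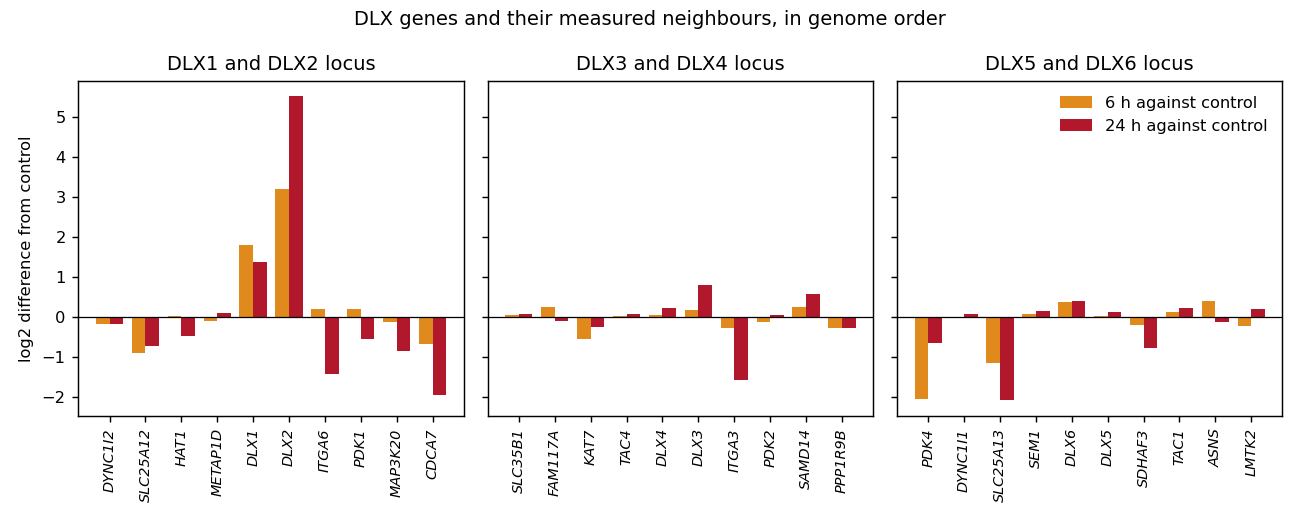
Log2 difference from control (vertical axis) at 6 h and 24 h for the DLX genes and their 4 nearest measured protein-coding neighbours on each side, in genome order along the horizontal axis. DLX1 and DLX2 stand at 1.79 and 3.21 at 6 h and 1.38 and 5.52 at 24 h between METAP1D (0.10 at 24 h) and ITGA6 (-1.43), on the deposited scale.

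The time courses of DLX1 and DLX2 were each shared by other genes. Likeness was measured as Pearson r of the log2 values over the 6 arrays, among 2414 genes whose group means spanned at least 1, and with 3 groups it mainly compares 3 means. For DLX1, with its 6 h peak, the closest were TMEM64 (r = 0.9988), FGFR1OP2 (0.9982), PELI1 (0.9974), GCH1 (0.9955) and CCNE2 (0.9949), and 81 genes were above 0.95. CCNE2, a cyclin of the G1 to S step, stood at 7.78 in control, 9.32 at 6 h and 9.07 at 24 h. For DLX2, which climbed at both steps, the closest were DYNLT3 (0.9998), TENT5C (0.9994), ZNF266 (0.9993), TSPYL2 (0.9991) and PPP1R3C (0.9989), and 564 genes were above 0.95. TENT5C moved from 3.01 to 4.94 and 6.48, and PPP1R3C, a glycogen-targeting subunit of a phosphatase, from 6.09 to 7.92 and 9.08. The arrays are the same for all these genes, and the values are a description. DLX3, DLX4, DLX5 and DLX6 spanned 0.79, 0.23, 0.11 and 0.38 and were not compared.

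Markers of the tissue and of the cell types in which DLX genes usually act were read on the same arrays. Of 11 proximal tubule markers 8 were measured, and all 8 had group means below 5 (3.46 to 4.94), so defining proximal tubule genes such as LRP2 and SLC34A1 were not at high signal in these cells. Of these 8, 1 had risen at 6 h and 2 at 24 h, and 0 had fallen. Markers of epithelium and the renal lineage were bright in part, with KRT19 at 11.65 and PAX8 at 9.02 in control. In each group 3 of the 10 had a mean below 5, and CDH1 was the lowest in control, at 3.36. At 6 h 0 of 10 were higher and 4 lower, and at 24 h 0 were higher and 5 lower. Of 7 neuron markers, 2 had risen at 6 h and 3 at 24 h, with 2 lower at each time, and their mean over the list was 4.19 to 4.22 on control arrays and 4.35 to 4.42 at 24 h. Of 7 keratinocyte markers 0 passed at 6 h and 1 had risen at 24 h, and the array means were 4.10 to 4.18 in control and 4.10 to 4.30 at 24 h. Of 5 osteoblast markers 1 was lower at each time, RUNX2. Of 4 leukocyte markers measured 2 were higher at 24 h, and of 6 fibroblast markers also 2, with none lower at 6 h or 24 h in either list. All these marker counts stand beside 14.0% higher and 15.8% lower of all genes at 6 h, and 31.2% and 23.0% at 24 h.

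Genes restricted to other tissues gave a second view of dim signals. Of 14, 12 were measured and 11 had a mean below 5 in every group. At 6 h 1 was higher and at 24 h 2 were higher, beside 14.0% and 31.2% of all genes. None was lower, beside 15.8% and 23.0%. Medians were 0.08 and 0.20, with array means of 3.49 to 3.63 in control and 3.72 to 3.73 at 24 h. The 24 h differences of DLX4 (0.23), DLX5 (0.11) and DLX6 (0.38) lie on the same order as that median, and those of DLX1, DLX2 and DLX3 above it. What part dim signal has in the smaller differences was not tested.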

How the data were processed

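RNA of HK-2 cells in 3 groups of 2 samples was hybridized to Affymetrix U219 arrays after labelling from the 3′ end. The deposited values are on a log2 scale. The authors obtained them in Expression Console 1.1 (Affymetrix) by RMA (robust multi-array average), which subtracts background, gives all arrays one distribution and summarizes each probe set. Low signals are compressed by this step. The number of arrays limits the precision.

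Of 49386 probe sets, 45253 named 1 gene in the platform annotation (45172 matched to current symbols by Entrez number), 93 were controls, 1327 held more than 1 gene and 2713 had no name here. The brightest probe set stood for each of 18239 genes. The tests used limma 3.58.1 in R 4.3.3 (lmFit, eBayes, 3 residual degrees of freedom), checked on simulated data. Python 3.11.15, numpy 2.4.6, pandas 2.3.3 and matplotlib 3.10.9 were used for the rest. The members and lists were chosen with earlier results of these data known.

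Named genes were all members, up to 3 rises and 3 falls per list at 24 h, the neighbours and the 5 genes most like DLX1 and DLX2. A few others (MSX2, GRIP1, markers) were named after their values were seen. Promoter sequences came from RefSeq, 3 of 6 members matched. Alternatives were the replicate block, only the groups compared, the mean of all probe sets, each probe set, trend and robust or no moderation, a signal filter (log2 of 5 in 2 arrays), 4 scalings, an adjusted p under 0.01, a 2-fold rule with unadjusted p under 0.01, leaving out each array and, added after seeing the data, a crossed block. For the pairing check, deviations of same-numbered arrays correlated at 0.163 (control and 6 h), -0.224 (control and 24 h) and -0.131 (6 h and 24 h), so the numbers were not taken as pairs.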

Additional observations from a re-analysis of the deposited data

Results flagged for a closer look

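For DLX1 and DLX3 the difference from control changed between 6 h and 24 h, by the test of that change itself (limma, 24 h against 6 h, adjusted over all genes). The effect on DLX1 was smaller at 24 h than at 6 h by -0.41 (adjusted p = 0.00445), with both 24 h arrays below both 6 h arrays. The effect on DLX3 was larger at 24 h by 0.61 (adjusted p = 0.00221), with both 24 h arrays above both 6 h arrays. Both comparisons with control use the same control arrays, which cancel in this test. Over the alternatives, the DLX1 change ran from -1.08 to -0.21 (adjusted p up to 0.0621) and that of DLX3 from -0.06 to 0.73 (adjusted p up to 0.770). With 2 arrays a group, no array could be tested for standing apart from the others.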

How the results depend on the processing

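Of the 3 counts of members past the threshold (of 5, 2 at 6 h, 3 at 24 h and 2 from 6 h to 24 h), each fell to 1 with the filter on signal, which left only DLX1 of the 5. DLX1 passed this filter through its treated arrays only, so the filter gives its call no independent support. At 6 h the count was also 1 without moderation, with the hybridization spike-ins, the housekeeping genes, an adjusted p under 0.01, the 2-fold rule and each probe set tested, and 1 to 2 with each array left out. At 24 h it was 1 with the 2-fold rule, and 2 to 3 with an array left out. Between the times it was 1 with the mean of all probe sets or without moderation, 0 with the 2-fold rule, 4 with all or with the poly-A spike-ins, then all lower, and 2 to 3 with an array left out. Scaling also moved directions. At 6 h, 1 was higher and 1 lower with all spike-ins and 1 and 2 with the poly-A spike-ins. At 24 h, 1 was higher and 3 lower with all, 2 and 1 with the hybridization and 0 and 4 with the poly-A spike-ins. Most of all 18239 genes moved down alike. At 6 h, 690 were higher and 10247 lower with all, and 325 and 13127 with the poly-A spike-ins. At 24 h these were 593 and 16107 with all, 1731 and 9832 with the hybridization and 262 and 17031 with the poly-A spike-ins. Between the times they were 462 and 12876 with all, and 196 and 14338 with the poly-A spike-ins.

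With all spike-ins, DLX5 at 6 h reversed to -0.36, and at 24 h DLX3 to -0.094, DLX4 to -0.66, DLX5 to -0.77 and DLX6 to -0.50, and between the times DLX4 to -0.33, DLX5 to -0.41 and DLX6 to -0.51. With the hybridization spike-ins, DLX5 reversed to -0.30 and DLX6 to -0.026 at 24 h, and DLX6 to -0.31 between the times. With the poly-A spike-ins, DLX4, DLX5 and DLX6 reversed to -0.50, -0.53 and -0.16 at 6 h, DLX3, DLX4, DLX5 and DLX6 to -0.42, -0.98, -1.10 and -0.83 at 24 h, and to -0.058, -0.48, -0.57 and -0.67 between the times. Only sign changes in which the member passed as deposited or after scaling are listed as reversals. Others passed in neither and are left out, such as DLX3 and DLX4 at 6 h with all spike-ins (-0.19 and -0.33). A scaling shifts all genes of an array alike. The cause of the spike-in shift was not tested.

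The replicate block left the counts at 2, 3 and 2, with DLX6 at 6 h at an adjusted p of 0.0216, and changed no call of a member. Over all genes it gave 2399 higher and 2810 lower at 6 h. The crossed block, chosen after seeing the data, also gave 2, 3 and 2, and over all genes 2575 higher and 2914 lower at 6 h. Without moderation DLX6 (adjusted p = 0.202 and 0.136) and DLX3 between the times (0.0562) did not pass. Most genes named from lists were picked as the largest changes that passed at 24 h, so the keeping of their calls is partly built in. Of 33 calls at 24 h among the genes named from lists and neighbours, 24 were kept with the poly-A spike-ins, where 8 reversed. With the 2-fold rule 15 were kept. From 6 h to 24 h, 16 of 28 calls were kept without moderation. Dim signal limits all members. DLX1 and DLX2 reached a log2 value of 5 on treated arrays only, in 1 probe set each, and no other DLX probe set reached it. In control, DLX1 read 4.57 and 4.65 and DLX2 3.17 and 2.74.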
